A study of Mus musculus with 6 samples.

Results

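The 40 genes described here encode nucleolar proteins that build the ribosome: factors of ribosomal RNA (rRNA) transcription, subunits of the small nucleolar ribonucleoproteins (snoRNPs), and processing factors of the small and large ribosomal subunits. They were chosen by name, and all 40 were present among the 22219 genes of the deposited table, 39 under their current symbol and Utp4 under its older symbol Cirh1a. All 40 passed the filter on low values that left 17570 genes for testing. RNA came from whole mouse testes on day 10, with 3 libraries of controls and 3 of a conditional knockout (cKO) that deletes Eif5 in germ cells. The knockout was made by crossing mice with floxed Eif5 alleles (Eif5fl/fl) to Stra8-Cre mice, in which the promoter of Stra8, a gene of premeiotic germ cells, drives the recombinase. The labels do not give the alleles of the controls, and the Cre itself, the floxed alleles and the loss of Eif5 cannot be told apart. Each library mixes the germ cells with the somatic cells of the testis, which the driver does not target.

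Ribosomes are assembled in the nucleolus. RNA polymerase I transcribes a long precursor rRNA, box C/D and box H/ACA snoRNPs direct its methylation and pseudouridylation, and large assemblies of processing factors fold and cut it into the RNAs of the small and large subunits. Growing and dividing cells, among them spermatogonia, need high rates of this work. eIF5, the product of Eif5, acts later, on the finished small subunit, where it stimulates GTP hydrolysis by eIF2 when the start codon is found.

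Values are normalised read counts, that is, recovered whole reads divided by the size factor the authors applied to each library. Between 32555443 and 48409550 reads were recovered per library, and mitochondrially encoded genes took 4.41% to 9.64% of these reads across the control libraries, compared with 6.39% to 7.95% across the cKO libraries. Eif5 itself was at 11964, 10551 and 11186 in the controls against 8548, 8982 and 9574 in cKO. It was lower in every cKO library, with a log2 fold change of -0.31 (limma adjusted p = 0.024), and its call ended without cKO replicate 1 or 2 (adjusted p = 0.133 and 0.089). Fold changes are on the log2(value + 2) scale, and a gene is called at an adjusted p under 0.05.

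Of the 40 nucleolar genes, 12 were lower in cKO and 0 were higher by limma. The 12 were Ltv1, Bms1, Rrp12, Heatr1, Utp20, Utp18 and Wdr75 of the small subunit group, Rrp1b, Npm3 and Pes1 of the large subunit group, and Ddx21 and Ncl of the rRNA transcription group. In fitted size Ltv1 fell by 32.8%, the most of the 12, and Ncl fell by 18.5%, the least. Over all genes tested, 10.4% were called lower and 9.63% higher. The median log2 fold change was -0.21 over the 40 genes and 0.01 over all genes tested. Among the 7421 tested genes whose mean level lay within the range of the 40, 11.7% were lower, 16.55% were higher and the median was 0.04. At an unadjusted limma p under 0.05 the counts over the 40 were 21 lower and 0 higher. Over all 17570 genes tested they were 2931 lower and 2929 higher. edgeR called 13 of the 40 lower and 0 higher, against 10.57% of all genes lower. DESeq2 called 14 lower and 0 higher, against 11.52% of all genes lower. All 3 cKO libraries lay below all 3 controls for 22 of the 40 genes, against 18.4% of all genes tested, and above them for 1, against 18.3%. The number called lower was 7 without cKO replicate 3, where 7.1% of all genes were lower. It was 10 to 13 without any other library, where 7.4% to 9.9% of all genes were lower.

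**Figure D1:**
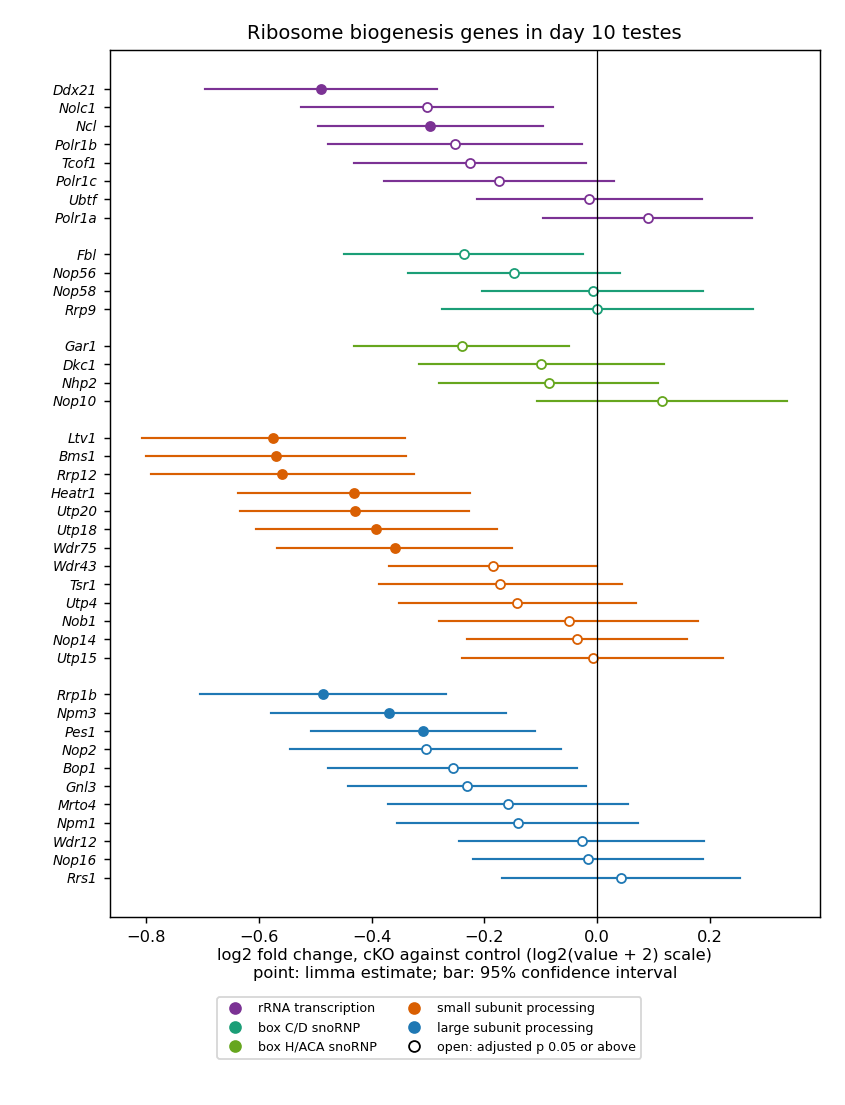
Fitted log2 fold change of each of the 40 genes (x axis, cKO against control) with its 95% confidence interval, grouped by role. Filled points are genes with a limma adjusted p under 0.05: 7 of the 13 small subunit genes, 3 of the 11 large subunit genes, 2 of the 8 rRNA transcription genes and 0 of the 8 snoRNP genes.

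The shift was present in each cKO library. As the median over the 40 genes of the log2 difference from the control mean, control replicates 1 to 3 stood at 0.07, 0.04 and -0.10 and cKO replicates 1 to 3 at -0.18, -0.17 and -0.25. The highest cKO library lay below the lowest control on this measure, and cKO replicate 3 was the lowest of the 6. The 40 genes together took 0.368%, 0.36% and 0.318% of the recovered reads of control replicates 1 to 3, and 0.282%, 0.296% and 0.281% of those of cKO replicates 1 to 3.

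The levels of the 40 differed widely per length of the longest annotated transcript. The nucleolar chaperone Npm1 had by far the most reads, with a control mean of 13689 normalised read counts per kilobase. The H/ACA protein Nhp2 (4262), the methyltransferase Fbl (3849) and the chaperone Npm3 (3111) followed on the same scale. The lowest was Wdr12, of the complex it forms with Pes1 and Bop1, at 138 per kilobase. A gene with a long, little used annotated transcript reads too low on this scale. The lengths used were 10012 bases for Wdr12, the longest among the 40, and 8202 for Ncl. Ncl had a control mean of 13518 normalised read counts but stood at 1648 per kilobase.

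The small subunit group held most of the genes called lower. Of its 13 genes 7 were lower, against 10.4% of all genes tested, 0 were higher, and the median log2 fold change was -0.36. Whether the roles differ in their change was not tested. In the wider lists named below, the small and large subunit medians were -0.21 and -0.23. Ltv1, a factor that accompanies the late pre-40S particle out of the nucleus, read 1829.8, 1553 and 1400.0 in control replicates 1 to 3 and 997, 1162 and 1038 in cKO replicates 1 to 3. The groups did not overlap, and the fit gave a log2 fold change of -0.57 (SE 0.112, limma adjusted p = 0.00122). Bms1, the GTPase of the small subunit processome, read 2224, 2288 and 1806 in the controls against 1499.9, 1508 and 1241 in cKO. Its lowest control was above its highest cKO library, giving a log2 fold change of -0.57 (SE 0.111, limma adjusted p = 0.00122).

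Rrp12, a HEAT-repeat protein of subunit maturation and export, read 2015, 1937 and 1627 in the controls against 1232, 1433 and 1124 in cKO. Again every cKO library was below every control, with a log2 fold change of -0.56 (SE 0.112, limma adjusted p = 0.00154). Heatr1, a processome protein with HEAT repeats that also acts in rRNA transcription, read 4738, 3859 and 4001 in the controls against 3349.7, 3062 and 2909 in cKO (log2 fold change -0.43, limma adjusted p = 0.00442). Utp20, a very large processome scaffold, read 3566, 2874 and 3427 in the controls against a narrow 2438, 2481 and 2372 in cKO (log2 fold change -0.43, limma adjusted p = 0.0041). These 5 genes remained called lower whichever library was left out.

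Of the beta-propeller proteins of the processome, some were called lower and others were not. Utp18 (control 1914 ± 163, cKO 1459 ± 130; SD, n = 3 per group) and Wdr75 (control 2409.7 ± 259.9, cKO 1873 ± 108; SD, n = 3 per group) fell, with log2 fold changes of -0.39 and -0.36 and limma adjusted p of 0.0104 and 0.0151. The call of Utp18 ended without cKO replicate 3 (adjusted p = 0.0651) and that of Wdr75 without cKO replicate 3 or control replicate 1 (adjusted p = 0.0837 and 0.0543). Wdr43, Utp4 and Utp15, which belong with Wdr75 and Heatr1 to the complex that first binds the nascent precursor, were not called. Wdr43 had a log2 fold change of -0.18 with no overlap between the groups (limma adjusted p = 0.148), Utp4 one of -0.14 and Utp15 one of -0.01. For Utp15 the 95% interval of the change, -0.24 to 0.22, excluded a fall of the size fitted for Ltv1.

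Among the late cytoplasmic factors, Tsr1, a GTPase-like protein related to Bms1, had a log2 fold change of -0.17 (limma adjusted p = 0.261), and Nob1, the endonuclease that makes the final cut of the small subunit rRNA, one of -0.05 (95% interval -0.28 to 0.18). In the GENCODE M21 annotation Tsr1 shares 616 exonic bases with Srr on the opposite strand, which was higher (log2 fold change 0.35, limma adjusted p = 0.0265), and reads of the shared bases cannot be assigned to either gene without strand. Nop14, an early processome component, read 1929, 2044 and 1858 in the controls against 1859, 2001 and 1828 in cKO. Its 6 libraries overlapped throughout (log2 fold change -0.04, 95% interval -0.23 to 0.16).

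**Figure D2:**
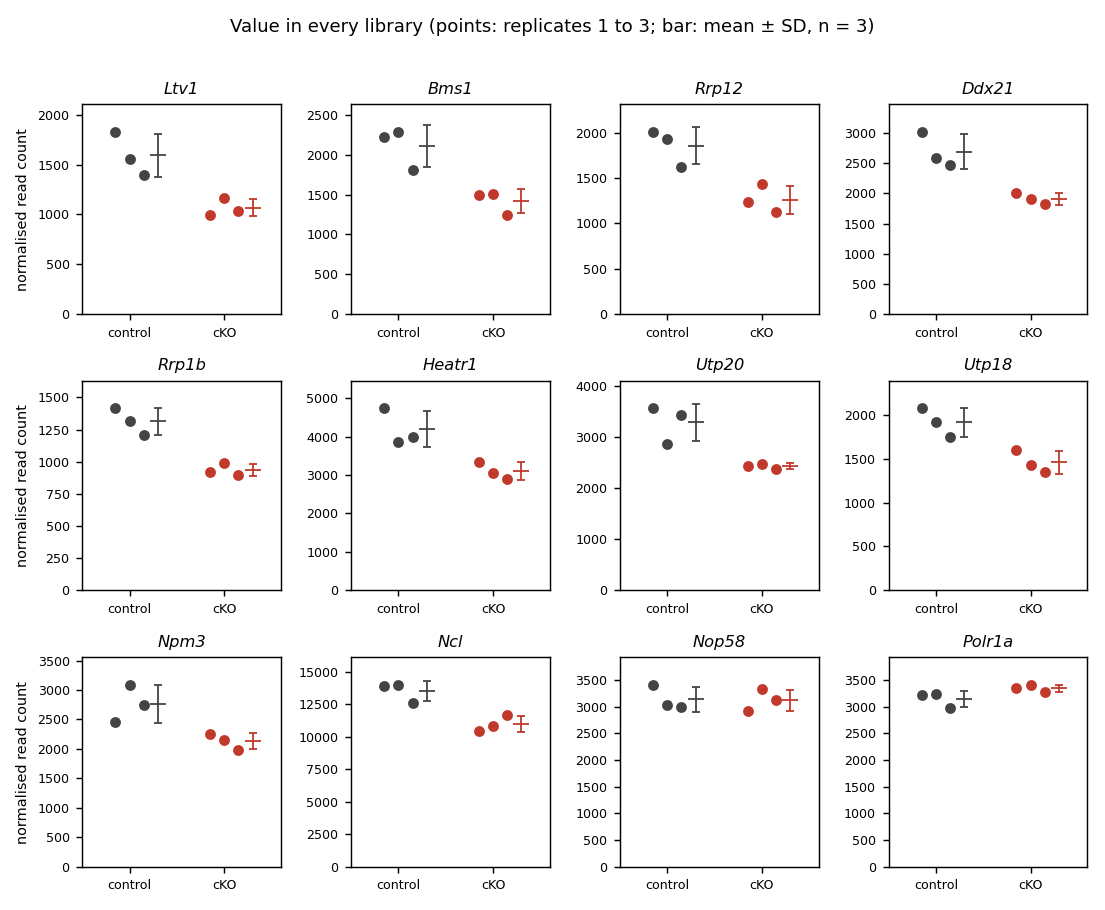
Normalised read count (y axis, from 0) of 12 of the genes in each control and cKO library; points are replicates 1 to 3 and bars give the mean ± SD (n = 3). The 10 genes from Ltv1 to Ncl were called lower with no overlap between the groups, Nop58 overlapped, and the 3 cKO values of Polr1a (3276 to 3412) lay above its controls without passing the test.

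In the group of rRNA transcription and its nucleolar cofactors 2 of 8 genes were lower and 0 higher, with a median of -0.24. Over all genes tested 10.4% were lower and 9.63% higher, and counts over 8 genes are too small to be told apart from these shares. Ddx21, an RNA helicase that promotes rRNA transcription and processing, read 3023, 2591 and 2468 in the controls against 2014, 1904 and 1819.9 in cKO. Its cKO libraries lay close together and below every control (log2 fold change -0.49, SE 0.0989, limma adjusted p = 0.00164), and the call remained without any single library. Ncl, nucleolin, an abundant RNA-binding protein of the nucleolus, read 13898, 14015 and 12639.9 in the controls against 10478, 10868 and 11684 in cKO (log2 fold change -0.30, limma adjusted p = 0.034). Leaving out control replicate 2 or any 1 of the cKO libraries 1 to 3 ended its call (adjusted p = 0.0815, 0.164, 0.124 and 0.0659).

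Nolc1 and Tcof1, paralogous phosphoproteins that link RNA polymerase I to snoRNPs, both read lower in every cKO library than in any control. Their log2 fold changes were -0.30 and -0.23, and neither passed the test (limma adjusted p = 0.0522 and 0.113). Nolc1 was called lower by edgeR and DESeq2 (adjusted p = 0.0436 and 0.034).

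The subunits of the polymerase were not called, and their estimates had both signs. Polr1a, its largest subunit, read 3228, 3237 and 2967 in the controls against 3344, 3412 and 3276 in cKO, the 1 gene of the 40 whose cKO libraries all lay above the controls (log2 fold change 0.09, 95% interval -0.10 to 0.28, limma adjusted p = 0.518). Polr1b, the second largest subunit, read 1716, 1725 and 1512 in the controls against 1511, 1466 and 1196 in cKO, with no overlap by a narrow margin (log2 fold change -0.25, limma adjusted p = 0.105). Polr1c, shared with RNA polymerase III, overlapped (-0.17, limma adjusted p = 0.223). Ubtf, the upstream binding factor that opens rRNA gene chromatin, was at 7204 ± 752 in control testes and at 7114 ± 239 in cKO testes (SD, n = 3 per group; log2 fold change -0.01, 95% interval -0.21 to 0.19). With libraries scaled to Sertoli cell markers (the Sertoli scaling, given with the markers), Polr1a read -0.32, against a median of -0.40 over all genes tested.

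None of the 8 snoRNP genes was called by limma, whereas 1 box C/D and 1 box H/ACA gene had an unadjusted p under 0.05, both lower. edgeR called 0 of the 8 and DESeq2 called 1. Over all 17570 genes tested, limma called 10.4% lower, and 2931 were lower at an unadjusted p under 0.05. Counts over 8 genes are too small to be told apart from these shares. The medians were -0.08 for box C/D and -0.09 for box H/ACA. Fbl, fibrillarin, the methyltransferase of the box C/D particle, read 4821, 4836 and 4163 in the controls against 4204, 4166 and 3387 in cKO, with overlap between control replicate 3 and the 2 higher cKO libraries (log2 fold change -0.24, limma adjusted p = 0.107). Its partners Nop56 (-0.15, limma adjusted p = 0.269) and Nop58 (-0.01, 95% interval -0.20 to 0.19) were not called. Rrp9, the protein specific to the U3 particle, was the most scattered of the 40, with controls of 1343, 1894 and 1299.6 and a log2 fold change of 0.00 (95% interval -0.28 to 0.28).

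In the box H/ACA particle Gar1 had a narrow spread, at 2132, 2047 and 2044 in the controls against 1753, 1729 and 1785 in cKO. The groups were well apart for their spread, with a log2 fold change of -0.24 that did not pass limma (adjusted p = 0.068) and passed DESeq2 (adjusted p = 0.0342). Dkc1, dyskerin, the pseudouridine synthase, had a log2 fold change of -0.10, Nhp2 one of -0.09 and Nop10, the smallest subunit, one of 0.12 (95% interval -0.11 to 0.34). All 3 overlapped between groups.

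In the large subunit group 3 of 11 genes were lower, against 10.4% of all genes tested, and 0 were higher, against 9.63%. The median was -0.23. Rrp1b, a nucleolar protein of large subunit processing that also binds a protein phosphatase, read 1416, 1319.5 and 1207 in the controls against 920.4, 990.2 and 898 in cKO. The gap between the groups was wide (log2 fold change -0.49, SE 0.105, limma adjusted p = 0.00287), and the call remained without any single library. In the GENCODE M21 annotation Rrp1b shares 54 exonic bases with Hsf2bp on the opposite strand, a meiotic gene that was also lower (log2 fold change -0.89, limma adjusted p = 7.97e-05). The strand setting of the counting is not given in the sources used here, so reads of the shared bases cannot be told apart.

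Npm3, which binds Npm1, read 2461, 3089.8 and 2738 in the controls against 2253, 2151 and 1989.5 in cKO (log2 fold change -0.37, limma adjusted p = 0.0129). The call ended without cKO replicate 3 or control replicate 2 (adjusted p = 0.0752 and 0.0647). Npm1 itself read 21862, 23032 and 22167 in the controls against 19142, 19875 and 21876 in cKO, where cKO replicate 3 reached the controls (log2 fold change -0.14, limma adjusted p = 0.36). Npm1 has processed pseudogenes of near-identical sequence, and reads shared with them make its value uncertain.

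Pes1, Bop1 and Wdr12 form the PeBoW complex, which is needed to separate the large subunit rRNAs. Pes1 fell from 2317 ± 155 to 1870.0 ± 108 (SD, n = 3 per group; log2 fold change -0.31, limma adjusted p = 0.0273). Leaving out control replicate 1, control replicate 2, cKO replicate 1 or cKO replicate 3 ended its call (adjusted p = 0.0646, 0.0597, 0.0906 and 0.126). Bop1 had a log2 fold change of -0.26 without overlap (limma adjusted p = 0.0936), and Wdr12 one of -0.03 with overlap (95% interval -0.24 to 0.19). Bop1 shares 50 exonic bases with Mroh1 on the opposite strand, which was lower (log2 fold change -0.58, limma adjusted p = 0.000697). Whether the 3 subunits differ from each other in their change was not tested.

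Of the remaining large subunit genes, Nop2, an rRNA cytosine methyltransferase, and Gnl3, nucleostemin, a GTPase abundant in stem and progenitor cells, read lower in every cKO library without passing the test. Their log2 fold changes were -0.30 and -0.23 (limma adjusted p = 0.0674 and 0.115). Mrto4, an assembly factor related to the stalk protein P0, stood at -0.16, and Nop16, another assembly factor, at -0.02. Rrs1, which helps to load the 5S particle, had a log2 fold change of 0.04 (95% interval -0.17 to 0.25).

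The promoters of the 40 genes were searched for the E-box CACGTG, the palindrome bound by MYC and related factors, since many ribosome biogenesis genes are known MYC targets. RefSeq GRCm38.p6 windows from 250 bases before to 50 bases after a start site matched 34 of the 40 genes, with 42 windows. The E-box was found in 8 of these genes (23.53%), against 8.09% of all 27025 genes with a window and 11.19% of the 12254 tested genes with a window. Counted by window, it was in 19.05% of the 42 and in 7.15% of all 32851. The wider lists named below held it in 20 of 116 genes. The motif reads the same on both strands, and genes with several windows had more chances to hold it. The 8 sites are shown because they are the stretch of promoter sequence that these genes share, with the E-box in capitals, each 5′ to 3′ on the gene's strand.
Ltv1 at chr10:13193092-13193121, minus strand: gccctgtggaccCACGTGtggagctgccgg
Utp20 at chr10:88826765-88826789, minus strand: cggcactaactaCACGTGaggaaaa
Utp18 at chr11:93885769-93885798, minus strand: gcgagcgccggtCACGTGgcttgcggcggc
Pes1 at chr11:3963965-3963994, plus strand: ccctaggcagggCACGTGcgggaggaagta
Nop2 at chr6:125131811-125131840, plus strand: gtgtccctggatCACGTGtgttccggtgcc
Tsr1 at chr11:74898092-74898121, plus strand: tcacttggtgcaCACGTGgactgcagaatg
Wdr43 at chr17:71616220-71616249, plus strand: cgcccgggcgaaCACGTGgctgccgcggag
Utp4 at chr8:106893643-106893672, plus strand: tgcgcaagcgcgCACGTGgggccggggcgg

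The first base of the motif lay 60 bases before the start site in Nop2 and 20 before it in Utp18, and at base 3 (Pes1) to base 38 (Utp20) counted from the start site in the other 6. Ltv1, Utp20, Utp18 and Pes1 are among the genes called lower, and the other 4 are not. The E-box was therefore in 4 of the 11 called genes with a window and in 4 of the 23 others. A match describes the letters only.

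No transcript of the MYC family was called lower. Mycn, the member known to act in spermatogonial stem cells, read 2326, 2518 and 2329 in the controls against 2837, 2940.1 and 2786 in cKO, higher in every cKO library (log2 fold change 0.26, limma adjusted p = 0.0498). This call was at the threshold: edgeR gave an adjusted p of 0.052 and DESeq2 one of 0.025. The limma call ended without every library except control replicate 2 (adjusted p = 0.078 to 0.191). With the Sertoli scaling the change of Mycn was -0.16, where the median over all genes tested was -0.40. Myc was much lower in level, at 222 ± 37.9 and 276 ± 20.7 (SD, n = 3 per group), and was not called (0.32, limma adjusted p = 0.19). Mxi1, a MYC antagonist, was higher (0.41, limma adjusted p = 0.00449; -0.01 with the Sertoli scaling). In all, 2 of 10 genes of the MYC network were higher and 0 lower, with 0 lower also at an unadjusted p under 0.05 and by edgeR and DESeq2. Over all genes tested, limma called 9.63% higher and 10.4% lower. Counts over 10 genes are too small to be told apart from these shares. A part of MYC factors in the falls of the nucleolar genes was not tested.

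A further feature of some of the genes is that they carry snoRNA genes in their introns. In GENCODE M21 at least 1 snoRNA gene lay within Ncl, Nop56, Nop58, Dkc1, Gnl3, Tsr1 and Wdr43 on the same strand, 7 of the 40 genes (17.5%), against 1.61% of the 14828 protein coding genes tested. Of these 7 host genes Ncl was called lower and the other 6 were not. The noncoding snoRNA hosts, which include Gas5, were matched for 6 of 8 names, with 0 called in either direction by limma, edgeR or DESeq2, 0 at an unadjusted p under 0.05 and a median of 0.04. Over all genes tested, limma called 10.4% lower and 9.63% higher. Counts over 7 and 6 genes are too small to be told apart from these shares.

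Transcript length and GC content showed little relation to the change across the 40 genes. The Spearman correlation of the log2 fold change was -0.20 with the length of the longest transcript and 0.01 with its GC content, given as descriptions over genes that share the same 6 libraries. Over the 14829 tested genes with a protein coding transcript they were -0.02 and 0.00.

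Beyond the 40, wider lists of 143 other ribosome biogenesis genes were fitted in the same test. Of the 140 genes that were matched and tested, 34 were lower (24.29%, against 10.4% of all genes) and 1 was higher, with a median of -0.21. By list, 14 of 48 small subunit genes, 12 of 53 large subunit genes, 4 of 20 nucleases, 3 of 9 rRNA transcription genes and 1 of 10 snoRNP assembly genes were lower. The number lower was 15, 17 and 21 without cKO replicate 3, 1 or 2, and 22, 25 and 46 without control replicate 1, 2 or 3. In these fits 7.1% to 9.9% of all genes were lower.

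The largest falls included the small subunit genes Pdcd11 (-0.57, limma adjusted p = 0.000837), a very large scaffold protein, and Esf1 (-0.55). Utp14b, a retrogene copy of the X-linked Utp14a that is needed for sperm production, had a log2 fold change of -0.62 (limma adjusted p = 0.00582), and reads shared with its parent make it uncertain. In the large subunit list Urb1 (-0.62), the helicase Ddx55 (-0.58) and the export adaptor Nmd3 (-0.48) fell most. Taf1b and Taf1d, of the factor that recruits RNA polymerase I to its promoter, fell from 920.1 ± 65.3 to 603 ± 104 and from 2494 ± 118 to 1696 ± 93.2 (SD, n = 3 per group; log2 fold changes -0.62 and -0.56, limma adjusted p = 0.00218 and 0.000334). Taf1c had -0.34, but its call ended without any 1 of 5 libraries, all but control replicate 1 (adjusted p = 0.065 to 0.17).

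Among the nucleases, the exosome catalytic subunit Dis3 (-0.48) and its helicase Mtrex (-0.47) were lower. Pop1, of RNase MRP and RNase P, was lower at -0.42, a call that leaving out cKO replicate 1, cKO replicate 2, control replicate 1 or control replicate 2 ended (adjusted p = 0.176, 0.05004, 0.101 and 0.08). The snoRNP assembly factor Znhit6 was lower at -0.30, a call that ended without any library except control replicate 3 (adjusted p = 0.052 to 0.153). Gnl3l, a paralogue of Gnl3, was the 1 gene called higher (0.32, limma adjusted p = 0.048). That call ended without any library except control replicate 1 (adjusted p = 0.06 to 0.19). With the Sertoli scaling the change of Gnl3l was -0.09, against a median of -0.40 over all genes tested.

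**Figure D3:**
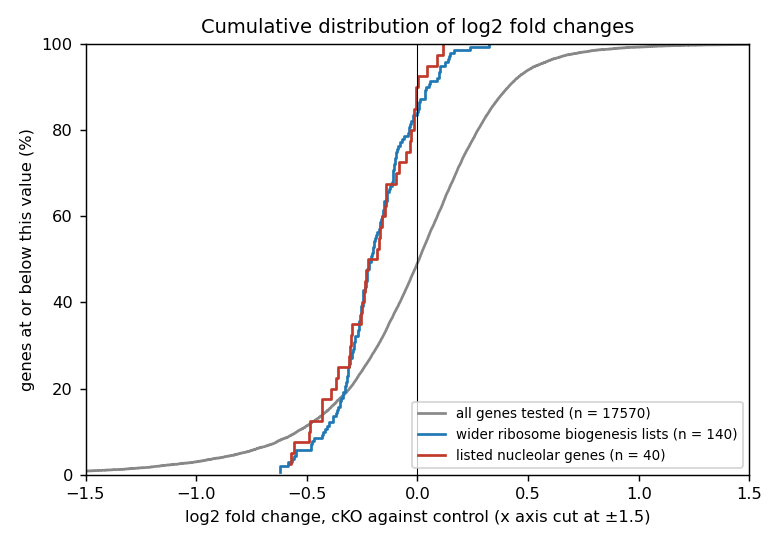
Cumulative distribution of log2 fold changes (x axis; y axis, percent of genes at or below each value) for the 40 genes, the 140 genes of the wider lists and all 17570 genes tested. The medians are -0.21, -0.21 and 0.01.

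Cell type markers moved between the groups as well, and fewer cells of a type cannot be told apart from less RNA per cell in bulk tissue. Of the 12 meiotic prophase markers 12 were lower, and their summed level was 22354 to 25845 in the controls against 9088 to 10447 in cKO. Of the 8 markers of differentiating spermatogonia 7 were lower (24522 to 24764 and 11663 to 13582), and of the 8 markers shared by germ cell stages 7 were lower (40645 to 48679 and 26489 to 27667). Of the 10 markers of undifferentiated spermatogonia 5 were higher and 0 lower by limma. Another 3 had a negative change with an unadjusted p under 0.05, and edgeR and DESeq2 each called 4 higher and 1 lower. Their summed levels overlapped (13639 to 15583 and 14822 to 15978).

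Somatic markers went up in part. Of 14 Sertoli cell markers 8 were higher (summed level 331766 to 471176 in the controls against 511884 to 585557 in cKO), as were 6 of 7 Leydig cell and 4 of 7 macrophage markers. Of the other lists, 2 of 6 erythroid genes were higher, 2 of 6 peritubular myoid genes were lower, and 1 of 5 endothelial genes went each way. Of the erythroid genes edgeR called 3 higher and DESeq2 0. Over all genes tested, limma called 9.63% higher and 10.4% lower, and counts over 5 or 6 genes are too small to be told apart from these shares. No marker of any of these lists was at 0 in all libraries, and the germ and Sertoli markers that define a testis were present in each library. The part of these shifts in the falls of the nucleolar genes was not tested.

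The count of genes called lower depended on the reference used for scaling. Scaled to library totals, 19 of the 40 genes were lower, against 14.2% of all genes, and the medians were -0.29 and -0.08. With the summed reads of the Sertoli markers as the reference (the Sertoli scaling) 28 were lower, against 25.6%, and the medians were -0.62 and -0.40. The median of the 40 lay 0.21 to 0.22 below that of all genes on the log2 scale under these 3 scalings. No gene of the 40 was called higher under any of them, against 4.59% of all genes with library totals and 0.131% with the Sertoli scaling.

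**Figure D4:**
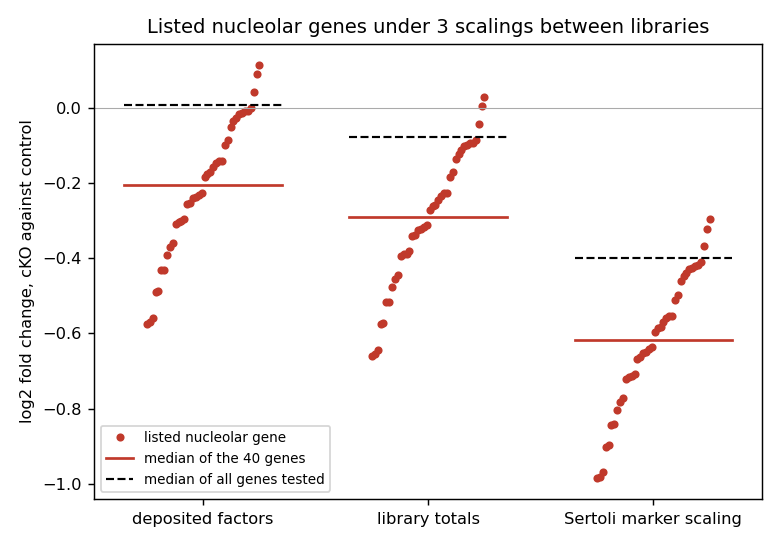
Log2 fold change (y axis) of each of the 40 genes under the deposited factors, library totals and the Sertoli scaling. Solid lines mark the median of the 40 genes (-0.21, -0.29 and -0.62) and dashed lines that of all genes tested (0.01, -0.08 and -0.40); both move together.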

How the data were processed

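RNA of whole testes on day 10 was sequenced in 3 control and 3 cKO libraries, grouped by the sample titles. The submitters' processing notes name StringTie 1.3.1 and RSEM without a role. For the aligner, build, annotation and strand, nothing is given in the sources used here. The table the authors deposited is named for raw counts, but it holds a normalised signal: 100% of the values in each column were whole multiples of 1 step (tolerance 1e-06), and 1 divided by that step gave the library's median-of-ratios size factor. Whole reads were recovered by dividing by the step. Genes under 10 recovered reads in all were not in the table, and 78.1% of recovered counts of 1 to 20 were even. The listed genes lie far above that range.

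The main test was limma 3.58.1 on log2(value + 2), 2-sided, its prior variance following the mean level, on the 17570 genes that passed edgeR's filterByExpr (minimum count 10), with Benjamini-Hochberg adjustment over all of them. edgeR 4.0.16 (quasi-likelihood) and DESeq2 1.42.0 were run on the recovered reads, in R 4.3.3. The scripts were tested on simulated data. Other scalings, pseudocounts, no filter, a replicate block and leaving out each library were also tried. The labels do not say whether a group's libraries came from separate animals. The p-values then reflect only the spread between these libraries, which may be technical. The most similar pair of libraries differed by a chi-square of 10.02 per degree of freedom over the recovered reads. Sampling noise alone would give about 1 for reads counted independently. Most low recovered counts were even, so the reads may not be independent and that reference may be too low.

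The listed genes, their roles, the wider lists and the markers were chosen with earlier results of these data known. Named genes are all 40 of the list, Eif5, the 3 called genes with the largest rise and the 3 with the largest fall of each wider list, the called genes of the MYC network and the snoRNA hosts, and Myc and Mycn. Hsf2bp, Mroh1, Srr and Lgals8 were named after their values were seen. Gm15491 and 4930556J24Rik were named for their overlaps with genes called lower. Symbols were matched directly or through RefSeq GRCm38.p6 synonyms. GENCODE M21 gave transcript lengths, snoRNA positions and exon overlaps.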

Additional observations from a re-analysis of the deposited data

How the results depend on the processing

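No gene of the 40 was called higher under any alternative run. The 12 called lower became 19 with library totals and 28 with the Sertoli scaling. They became 39 when Clu, the Sertoli marker with the most reads, was left out of that scaling, an alternative added after seeing the data. The median log2 fold change of the 40 was -0.62 and -0.64 under these last 2, against -0.40 and -0.43 for all genes. The remaining alternatives that kept all 6 libraries gave 12 to 14, against 8.03% to 11.52% of all genes. Leaving out 1 library gave 7 (without cKO replicate 3) to 13 lower, against 7.1% to 9.9% of all genes, and medians of -0.24 to -0.15. Of the 12 calls 7 remained in all 6 such fits.

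The number called among all genes moved with the scaling too. With the deposited factors 1692 were higher and 1829 lower, with library totals 807 and 2495, with the Sertoli scaling 23 and 4493, and with that scaling without Clu 48 and 8159.

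Same-numbered control and cKO libraries did not deviate together (correlations of -0.038, -0.002 and 0.055). With the replicate number as a block 12 genes were lower, with Nolc1 gained (adjusted p = 0.0427) and Ncl lost (adjusted p = 0.0619).

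Genes near 0 changed sign with single libraries left out, none of them called: Nob1 (-0.1227 to 0.01525), Nop14 (-0.07493 to 0.001261), Wdr12 (-0.07605 to 0.04568), Nop16 (-0.05726 to 0.03422), Ubtf (-0.07643 to 0.068), Nop58 (-0.05323 to 0.05261), Utp15 (-0.08922 to 0.0843), Rrs1 (-0.02333 to 0.1089) and Rrp9 (-0.09798 to 0.1735). Rrp9, at 0.00, also read -0.01221 by DESeq2, -0.01194 by edgeR, -0.002882 with TMM factors and -0.08547 with library totals, where Rrs1 read -0.04282. With the Sertoli scaling Rrp9, Rrs1, Polr1a and Nop10 read -0.41, -0.37, -0.32 and -0.30, and without Clu -0.44, -0.40, -0.35 and -0.32. The lowest mean level among the 40 genes was 992 normalised read counts.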
